A study of Homo sapiens with 10 samples.

Results

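Translation initiation factors are the proteins that bring the messenger RNA, the initiator tRNA and the ribosomal subunits together at a start codon. The genes examined here were all named rows of the array table whose gene symbol begins with EIF and a digit, pseudogenes left out. They came to 26 of the 14884 genes with a named row, of which 24 are protein-coding and 2, EIF1B-AS1 and EIF3J-DT, are long non-coding RNAs. EIF4B had 2 rows and was represented by the row of higher mean, and the other members had 1 row each. By symbol, 10 members belonged to the EIF4 group, 4 to the EIF2AK kinases, 1 to the EIF2 group (EIF2D) and 1 to the EIF3 group (EIF3J-DT), and 10 were EIF1, EIF5 and EIF6 genes. The subunits of the eIF2, eIF2B and eIF3 complexes and the eIF4G scaffolds were not analysed here, so a comparison of complete EIF2, EIF3 and EIF4 groups could not be made.

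RNA came from 10 clones of PC-3, an established human line from a bone metastasis of prostate cancer. The CENPU clones (numbers 1, 4, 5, 7 and 13) carried the centromere gene CENPU in a p-Lenti lentiviral vector, and the control clones (numbers 1 to 5) carried the same vector empty. All 10 had been selected with blasticidin, each was a clonal isolate, and 1 Affymetrix array was run per clone. The comparison asked which transcripts differ in clones that overexpress CENPU. A group difference therefore also holds what separates single clones of PC-3 from each other, which 5 isolates a group sample only in part.

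Values are log2 expression values, on which a difference of 1 is a doubling. CENPU itself averaged 9.34 ± 0.43 in CENPU clones against 6.26 ± 0.29 in control clones (SD, n = 5 each), and the groups did not overlap. Of 13 marker genes listed, 8 were measured. The epithelial keratins KRT18 and KRT19 lay between 10.2 and 11.2 in every clone, the epithelial genes KRT8 and EPCAM between 5.74 and 7.62, the androgen-driven prostate genes KLK3 and KLK2 between 5.33 and 5.78 and the endothelial gene PECAM1 between 4.88 and 6.21. VIM, the mesenchymal filament gene that PC-3 also expresses, was the 1 marker that passed, with 8.26 to 8.75 in CENPU clones against 7.58 to 7.93 in control clones, a rise of 0.74 (limma adjusted p = 0.00446) whose part in the results was not tested. Array medians were 4.62 to 4.76, Pearson coefficients of array pairs over the named rows were 0.918 to 0.993, and 0 pairs of arrays were identical. The deviations of protein-coding genes in a clone went with genomic span, the distance from the start to the end of a gene. Over the 10 clones, the Spearman coefficient of deviation with span was highest in CENPU clones 13, 7 and 5, at 0.360, 0.316 and 0.197, and lowest in control clone 2, at -0.355. The other control clones lay between -0.279 and -0.0934, and CENPU 1 and 4 at -0.160 and -0.0358. The span trend thus went partly with the group and cannot be fully told apart from it. Results are given with these clones in view.

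As background, the cap-binding protein eIF4E, the scaffold eIF4G and the RNA helicase eIF4A form the complex that loads mRNA onto the small ribosomal subunit. The helicase is stimulated by the RNA-binding cofactors eIF4B and eIF4H, and 4E-binding proteins keep eIF4E from the scaffold until the mTOR kinase phosphorylates them. The factor eIF2 carries the initiator tRNA, and 4 kinases of the EIF2AK family stop its recycling by phosphorylating its alpha subunit under stress. After the start codon is found, eIF5 and eIF5B complete the release of factors and the joining of the large subunit.

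The letters in front of some of these genes are shown because EIF4B, the member with the smallest p, belongs to the mRNAs with a terminal oligopyrimidine tract, whose translation follows mTOR activity. Each line gives the bases from 150 before to 20 after the RefSeq transcript start in build GRCh38.p14, for members with 1 start in the RefSeq table: the 4 that rose, and EIF4E. Capitals mark the E-box CACGTG, the GC box GGGCGG or its reverse complement, and a run at the start of a C followed by at least 4 bases that are C or T.
EIF4B, chr12:53006306-53006475, plus strand: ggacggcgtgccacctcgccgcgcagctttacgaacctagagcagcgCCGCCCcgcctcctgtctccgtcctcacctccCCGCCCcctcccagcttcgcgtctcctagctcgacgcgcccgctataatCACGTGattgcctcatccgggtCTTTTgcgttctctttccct
EIF4H, chr7:74174206-74174375, plus strand: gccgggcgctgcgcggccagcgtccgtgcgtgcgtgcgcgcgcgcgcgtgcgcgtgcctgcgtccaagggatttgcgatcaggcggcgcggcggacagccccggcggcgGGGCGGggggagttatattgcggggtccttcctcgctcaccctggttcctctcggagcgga
EIF5B, chr2:99337239-99337408, plus strand: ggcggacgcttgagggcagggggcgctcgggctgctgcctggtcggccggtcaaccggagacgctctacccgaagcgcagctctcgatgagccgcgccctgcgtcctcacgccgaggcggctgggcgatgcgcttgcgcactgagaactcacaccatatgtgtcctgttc
EIF2AK4, chr15:39933965-39934134, plus strand: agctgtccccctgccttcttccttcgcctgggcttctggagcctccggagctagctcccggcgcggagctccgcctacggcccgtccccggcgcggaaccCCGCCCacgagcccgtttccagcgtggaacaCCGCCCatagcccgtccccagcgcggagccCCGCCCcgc
EIF4E, chr4:98929114-98929283, minus strand: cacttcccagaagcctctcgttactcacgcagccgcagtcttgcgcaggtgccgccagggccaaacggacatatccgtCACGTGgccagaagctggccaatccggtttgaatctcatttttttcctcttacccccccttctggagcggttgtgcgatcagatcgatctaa

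EIF4B held an E-box 22 bases before its start, 2 GC boxes and a start run of 5 bases. EIF4E held an E-box 72 bases before its start and 0 GC boxes, EIF4H 1 GC box, EIF2AK4 3 and EIF5B 0 of these motifs. Of the 22199 protein-coding promoters in the table, 5.88% held the E-box in this window, 48.6% the GC box and 4.54% the start run. Promoters were matched for 24 members, not for EIF4EBP1 and EIF2AK1, and 18 of the 24 had 1 start. Those 18 include the non-coding EIF1B-AS1, whereas the 22199 are protein-coding promoters, so the sets are not fully alike. Of those 18, 4 held the E-box (EIF1B, EIF4A3, EIF4B and EIF4E), 11 the GC box, and EIF2D and EIF4B the start run. The letters matched are a description of these windows, not of binding.

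Of the 26 members, 7 rose in CENPU clones, 0 fell and 19 did not pass (limma, Benjamini-Hochberg adjusted p under 0.05 over all named rows). Over all genes 5.31% were higher, 4.79% lower and 10.1% either, so the share of members higher, 26.9%, lay above the background share and that of members lower, 0, below it. The 7 were the helicase cofactors EIF4B and EIF4H, the cap-binding gene EIF4E3, the 4E-binding protein gene EIF4EBP1, the subunit-joining factor EIF5B and the kinases EIF2AK1 and EIF2AK4. The median log2 difference was 0.09 over the members and -0.02 over all genes. At an unadjusted p under 0.05 there were 12 members, 46.2%, beside 27.9% of all genes. Without control 2, CENPU 7 and CENPU 13, 2 members rose, EIF4B and EIF4E3, beside 1.40% of all genes. These clones lay at the ends of the span trend and furthest from the mean in the 7 that rose. Taking them out by itself lowers most of the 7 differences and leaves fewer clones in the fit. CENPU 5, also at the upper end of the trend, was kept. Leaving out 1 clone at a time gave from 2 members higher, without CENPU 5, CENPU 7, CENPU 13 or control 4, to 9, without CENPU 1. The share of all genes higher moved with it, at 3.02%, 2.22%, 2.77% and 2.00% in those 4 fits and 9.83% without CENPU 1. Without control 2 there were 3 members, beside 2.30% of all genes, and without control 3 or control 5 there were 4, beside 2.97% and 2.90%.

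**Figure D1:**
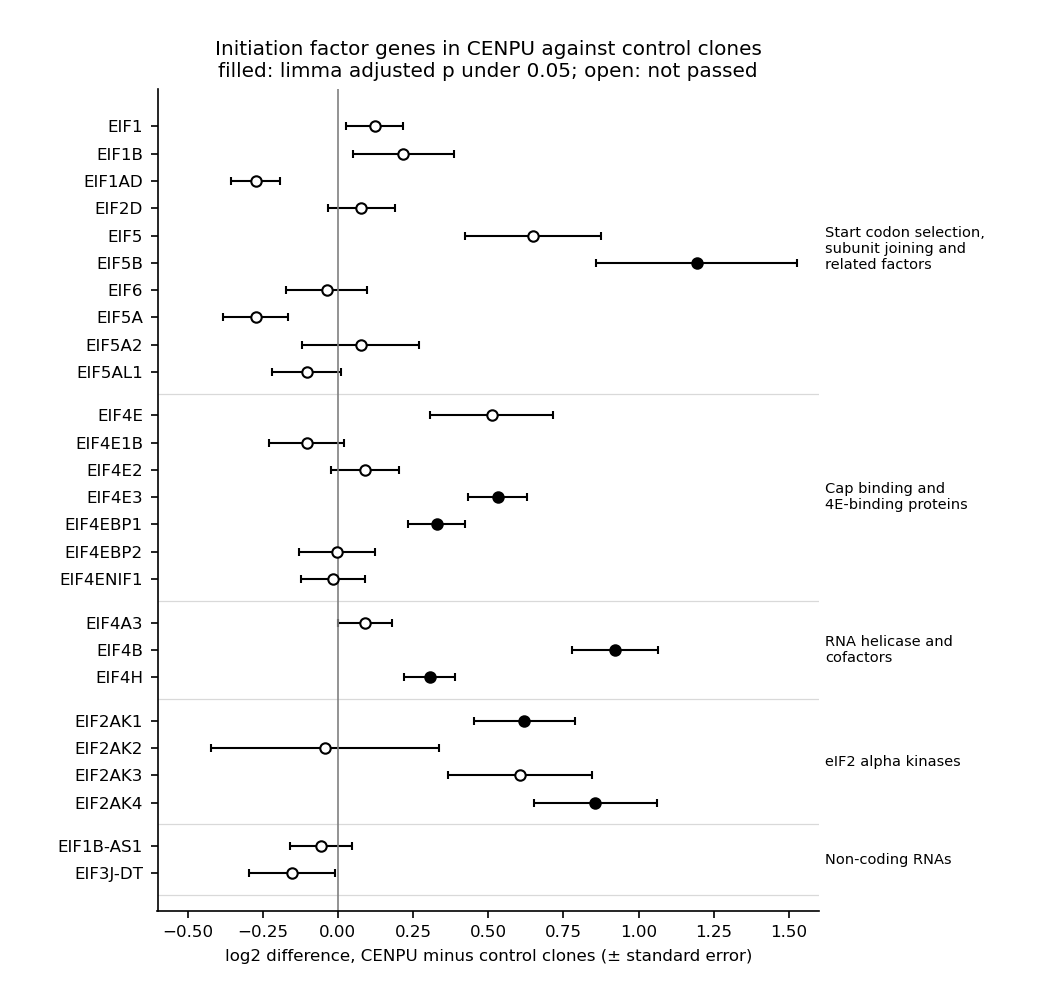
Log2 difference of each member, CENPU minus control clones (horizontal axis, log2 units, bars are limma standard errors), grouped by role. The 7 filled points passed and all lie right of 0, from EIF4H at 0.31 to EIF5B at 1.19.

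The smallest adjusted p belonged to EIF4B, which encodes the RNA-binding protein that stimulates the eIF4A helicase. Its values were 9.31, 9.67, 9.86, 9.94 and 9.99 in CENPU clones 1, 4, 5, 7 and 13, against 9.04, 8.51, 8.93, 8.88 and 8.81 in control clones 1 to 5. Every CENPU clone lay above every control clone, with CENPU 1 closest to the controls and control 2 lowest. The difference was 0.92 with a standard error of 0.14, a 1.89-fold rise (limma adjusted p = 0.00458). The other EIF4B row gave 5.72, 6.34, 6.56, 6.77 and 7.15 in the CENPU clones against 5.20, 5.23, 5.09, 4.98 and 5.35 in the control clones. Those groups did not overlap either, and the second row rose by 1.34 (standard error 0.22, limma adjusted p = 0.0052). EIF4B was 0.70 higher without control 2, CENPU 7 and CENPU 13 (limma adjusted p = 0.0283), and it passed in all 10 fits that left out 1 clone.

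EIF4H encodes a smaller cofactor that shares its RNA-binding domain type and its action on the helicase with eIF4B. It had 9.59, 9.57, 9.67, 9.58 and 9.61 in CENPU clones 1, 4, 5, 7 and 13, against 9.42, 9.09, 9.30, 9.32 and 9.38 in control clones 1 to 5. The SD was 0.04 in CENPU clones and 0.13 in control clones, and all CENPU clones lay above all controls. EIF4H rose 1.24-fold, by 0.31 with a standard error of 0.09 (limma adjusted p = 0.043). It passed in 3 of the 10 fits that left out 1 clone. Without control 2, CENPU 7 and CENPU 13 the difference was 0.26 and did not pass (limma adjusted p = 0.196). After quantile normalization EIF4H was 0.24 higher and did not pass (limma adjusted p = 0.0775). EIF4A3, a helicase of the same family that serves the exon junction complex rather than initiation, averaged 10.1 in both groups with a difference of 0.09.

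Among genes of the cap-binding family, EIF4E3 rose and the other 3 did not pass. EIF4E3 encodes a cap-binding paralogue with an atypical cap pocket. It had 5.62, 5.56, 5.82, 5.77 and 6.01 in CENPU clones 1, 4, 5, 7 and 13, against 5.20, 5.30, 5.18, 5.17 and 5.26 in control clones 1 to 5. These values lay within the range of the endothelial gene PECAM1, 4.88 to 6.21, so the signal may be close to background. All CENPU clones exceeded all control clones, whose SD was 0.06. The difference was 0.53 with a standard error of 0.10, or 1.45-fold (limma adjusted p = 0.0097). It was 0.46 without control 2, CENPU 7 and CENPU 13 (adjusted p = 0.0472). With the span trend removed from each array it was 0.31 and did not pass (limma adjusted p = 0.064).

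EIF4E, the gene of the main cap-binding protein, had 6.21, 6.49, 6.90, 7.25 and 7.39 in CENPU clones 1, 4, 5, 7 and 13, against 6.52, 6.17, 6.32, 6.42 and 6.25 in control clones 1 to 5. CENPU 5, 7 and 13 lay above all controls, and CENPU 1 and 4 among them. The difference of 0.51 with a standard error of 0.20 did not pass (limma adjusted p = 0.13). Without control 2, CENPU 7 and CENPU 13 its size was 0.15. EIF4E passed as higher without CENPU 1, its lowest CENPU clone (0.67, limma adjusted p = 0.0259), and with array weights (0.55, limma adjusted p = 0.0487). EIF4E2, whose product binds the cap in translational repression, differed by 0.09 with a standard error of 0.11. EIF4E1B, a paralogue known from oocytes, differed by -0.10 with a standard error of 0.12. Whether EIF4E3 differed more than its paralogues was not tested.

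EIF4EBP1 encodes 4E-BP1, the eIF4E inhibitor that mTOR phosphorylates. Its values were 10.12, 10.10, 10.14, 9.94 and 9.93 in CENPU clones 1, 4, 5, 7 and 13, against 9.65, 9.84, 9.59, 9.89 and 9.62 in control clones 1 to 5. The groups did not overlap but came close, and unlike the other members that rose it was lowest in CENPU 7 and 13. It rose 1.26-fold, by 0.33 with a standard error of 0.09 (limma adjusted p = 0.0471). It passed in 0 of the 10 fits that left out 1 clone, with differences of 0.30 to 0.37, and did not pass after quantile normalization (0.25, limma adjusted p = 0.132). EIF4EBP2, the gene of another inhibitor of this kind, had the highest mean of the EIF4 group, with 10.73, 10.48, 10.87, 10.73 and 10.94 in CENPU clones 1, 4, 5, 7 and 13, against 10.95, 10.42, 10.68, 10.73 and 10.97 in control clones 1 to 5. The groups overlapped throughout, and EIF4EBP2 differed by -0.002 with a standard error of 0.13. EIF4ENIF1, which carries eIF4E into the nucleus, differed by -0.02 with a standard error of 0.11.

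**Figure D2:**
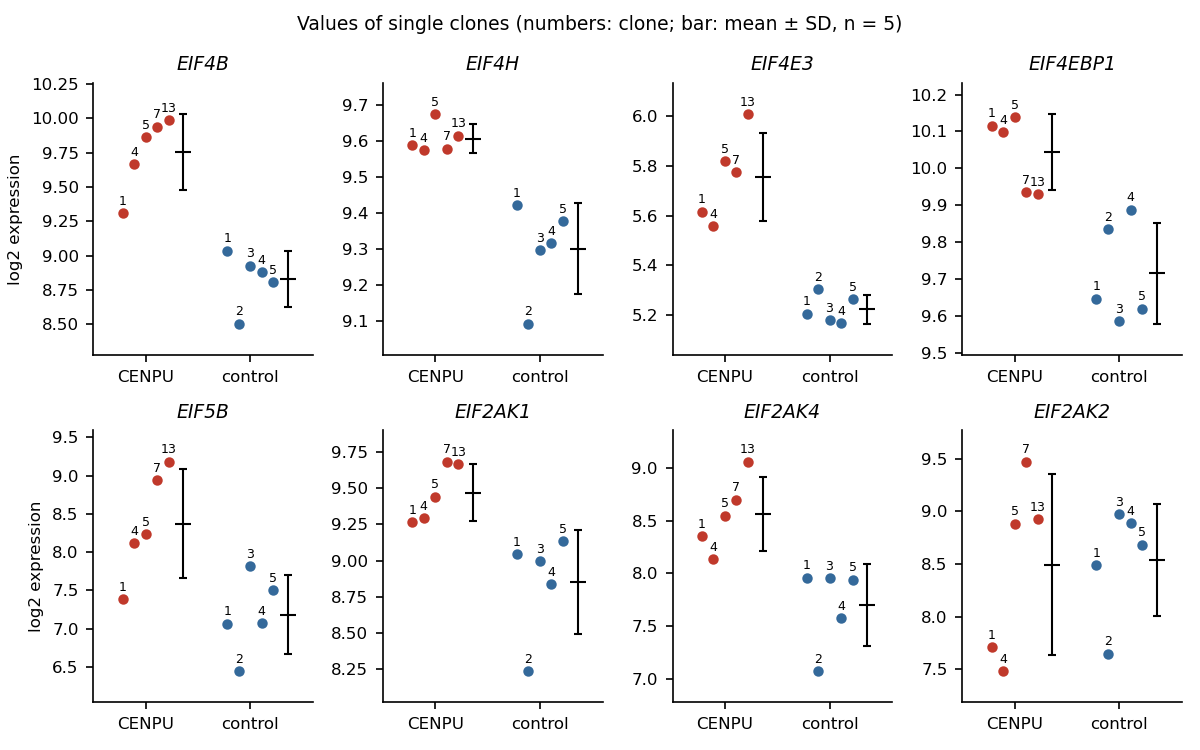
Log2 expression of single clones for the 7 members that rose and for EIF2AK2 (vertical axes, log2 units; numbers are clone numbers; bars are mean ± SD, n = 5). In 6 of the 8 panels all CENPU clones lie above all control clones; in EIF5B and EIF2AK2 the groups overlap.

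Of the 4 kinases of eIF2 alpha, EIF2AK4 and EIF2AK1 rose and EIF2AK3 and EIF2AK2 did not pass, with a group median of 0.61. EIF2AK4 encodes GCN2, which senses uncharged tRNA. It had 8.36, 8.14, 8.55, 8.70 and 9.06 in CENPU clones 1, 4, 5, 7 and 13, against 7.96, 7.08, 7.95, 7.58 and 7.94 in control clones 1 to 5. The groups did not overlap, CENPU 13 was highest and control 2 lowest. The rise was 1.81-fold, 0.86 with a standard error of 0.20 (limma adjusted p = 0.025). EIF2AK1 encodes HRI, which responds to haem shortage and to mitochondrial stress. It had 9.27, 9.29, 9.44, 9.68 and 9.67 in CENPU clones 1, 4, 5, 7 and 13, against 9.04, 8.24, 8.99, 8.84 and 9.13 in control clones 1 to 5. Here too the groups did not overlap and control 2 stood below the rest. EIF2AK1 rose 1.54-fold, by 0.62 with a standard error of 0.17 (limma adjusted p = 0.0381). Without control 2, CENPU 7 and CENPU 13 the differences were 0.49 for EIF2AK4 and 0.33 for EIF2AK1 (limma adjusted p = 0.0984 and 0.152), and the group median was 0.24.

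EIF2AK3 encodes PERK, the kinase of the endoplasmic reticulum stress response. It had 5.57, 6.06, 6.38, 6.88 and 6.83 in CENPU clones 1, 4, 5, 7 and 13, against 5.77, 5.27, 6.01, 5.71 and 5.93 in control clones 1 to 5. CENPU 1 lay among the controls and CENPU 7 and 13 were highest, and the difference of 0.61 with a standard error of 0.24 did not pass (limma adjusted p = 0.128). It was 0.15 when control 2, CENPU 7 and CENPU 13 were left out. Without CENPU 1, its lowest CENPU clone, EIF2AK3 passed as higher (0.80, limma adjusted p = 0.0224). EIF2AK2 encodes PKR, the interferon-inducible kinase activated by double-stranded RNA. It had 7.71, 7.48, 8.88, 9.47 and 8.92 in CENPU clones 1, 4, 5, 7 and 13, against 8.49, 7.65, 8.98, 8.89 and 8.68 in control clones 1 to 5. CENPU 1, CENPU 4 and control 2 were low and the other 7 clones high, and the spread ran within the groups. The SD was 0.86 in CENPU clones and 0.53 in control clones, the difference -0.04 with a standard error of 0.38. Leaving out control 2, CENPU 7 and CENPU 13, it was -0.73 and did not pass (limma adjusted p = 0.207).

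EIF5B, whose GTPase product joins the ribosomal subunits, had the largest difference of the members. Its values were 7.39, 8.12, 8.23, 8.94 and 9.18 in CENPU clones 1, 4, 5, 7 and 13, against 7.07, 6.44, 7.82, 7.07 and 7.50 in control clones 1 to 5. CENPU 1 lay below control 3 and control 5, so the groups overlapped. The rise was 2.29-fold, 1.19 with a standard error of 0.33 (limma adjusted p = 0.0439). It passed in 3 of the 10 fits that left out 1 clone, and without control 2, CENPU 7 and CENPU 13 it was 0.55 (adjusted p = 0.256). EIF5, which makes eIF2 hydrolyse GTP at the start codon, had 7.34, 7.43, 8.21, 8.28 and 8.35 in CENPU clones 1, 4, 5, 7 and 13, against 7.41, 6.74, 7.46, 7.32 and 7.44 in control clones 1 to 5. CENPU 5, 7 and 13 were above all controls, CENPU 1 and 4 were not, and the difference of 0.65 with a standard error of 0.23 did not pass (limma adjusted p = 0.0895). It was 0.25 when control 2, CENPU 7 and CENPU 13 were left out. EIF5 passed as higher without CENPU 1, its lowest CENPU clone (0.80, limma adjusted p = 0.0285), and without CENPU 4 (0.77, limma adjusted p = 0.046). With array weights it passed too (0.66, limma adjusted p = 0.0372).

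None of the remaining members passed. EIF1, which guards the accuracy of start codon choice, had 10.16, 10.36, 10.38, 10.56 and 10.50 in CENPU clones 1, 4, 5, 7 and 13, against 10.39, 10.16, 10.28, 10.26 and 10.26 in control clones 1 to 5, and differed by 0.12 with a standard error of 0.09. Its paralogue EIF1B differed by 0.22 with a standard error of 0.17. EIF2D, a factor outside the eIF2 complex that can deliver tRNA to the small subunit, had 10.29, 10.36, 10.41, 10.22 and 10.28 in CENPU clones 1, 4, 5, 7 and 13, against 10.44, 9.91, 10.32, 10.09 and 10.39 in control clones 1 to 5, a difference of 0.08. The groups overlapped in all 3, and EIF6, which keeps the large subunit from joining too early, differed by -0.04. The only member with all CENPU clones below all controls was EIF1AD, a nuclear protein with an eIF1A-like domain. It had 8.58 to 8.83 in CENPU clones against 8.88 to 9.05 in control clones, and its difference of -0.27 with a standard error of 0.08 did not pass (limma adjusted p = 0.0559). It passed as lower after quantile normalization (-0.33, limma adjusted p = 0.0332).

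The genes of the eIF5A family, which acts mainly in elongation, gave -0.27 for EIF5A, 0.08 for EIF5A2 and -0.10 for EIF5AL1. EIF5A had 5.75 to 6.22 in CENPU clones against 6.20 to 6.41 in control clones (limma adjusted p = 0.126). EIF5AL1 is a near copy of EIF5A, so their signals may be shared. The long non-coding EIF3J-DT had 7.10, 7.02, 7.20, 7.45 and 7.76 in CENPU clones 1, 4, 5, 7 and 13, against 7.38, 7.38, 7.73, 7.46 and 7.33 in control clones 1 to 5, a difference of -0.15 with overlapping groups. EIF1B-AS1 differed by -0.06.

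Groups did not overlap for 7 members, with CENPU clones above in 6 and below in EIF1AD. Over all genes 4.54% had all CENPU clones above and 5.19% all below. Permuting the clones (exact test, two-sided) yielded p = 0.00794 for each of these 7 members, which is the lower limit with 5 against 5 clones. Groups that do not overlap always give this limit, so for these 7 the permutation adds nothing to the non-overlap. For EIF5B, whose groups overlap, the permutation gave p = 0.0238 (exact permutation test, n = 5 each).

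Several of the members that rose had the same clones at their ends. The 7 were chosen because they passed as higher on these same values, which favours CENPU clones above a member's mean and control clones below it. Control 2 was the lowest control clone in 5 of the 7 and in 17 of all 26, and CENPU 13 was the highest CENPU clone in 4 of the 7. The median deviation of the 7 from their own means was 0.13, 0.13, 0.33, 0.52 and 0.52 for CENPU clones 1, 4, 5, 7 and 13, against -0.23, -0.79, -0.18, -0.32 and -0.23 for control clones 1 to 5. Over all 26 members, in the same order of clones, it was 0.005, 0.02, 0.18, 0.14 and 0.18, against -0.02, -0.30, -0.03, -0.07 and -0.05. CENPU 5, 7 and 13 stood furthest above 0 and control 2 furthest below, and these are the clones at the upper and lower ends of the span trend. EIF4EBP1 and EIF4H did not follow this order in the CENPU clones. Among the controls, control 2 was the highest clone in EIF4E3, at 5.30, and in EIF4EBP1 it was at 9.84, below control 4 alone. The part of the span trend in these differences was not tested beyond the fits with the trend removed and without the 3 clones.

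**Figure D3:**
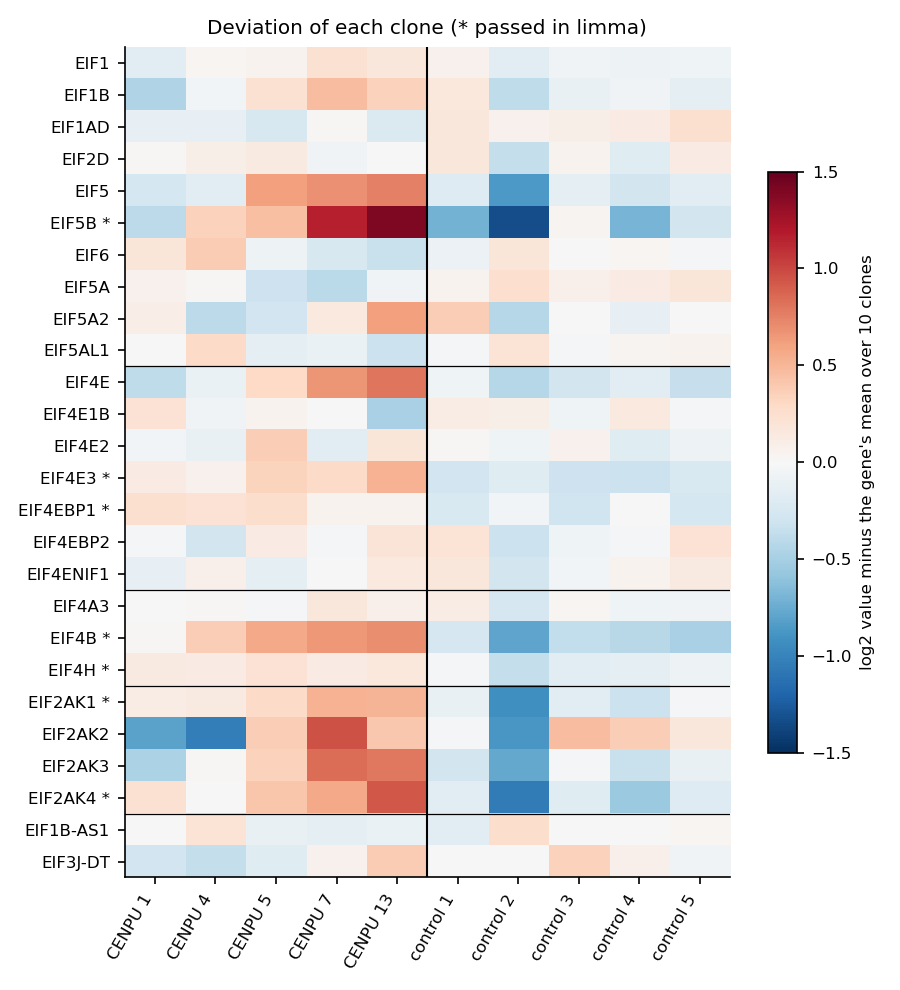
Deviation of each clone from the member's mean over 10 clones (colour, log2 units), with members in rows by role, CENPU clones left and control clones right, and an asterisk on the 7 that passed. EIF5B, EIF2AK4 and EIF4B are high in CENPU 7 and CENPU 13 and low in control 2, whereas EIF2AK2 is low in CENPU 1, CENPU 4 and control 2.

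Genomic span went with the difference among the members as it did among all genes. The 15 protein-coding members with a span of at least 20 kb included all 7 that rose and had a median log2 difference of 0.33, and the 9 shorter members had a median of -0.04 with 0 passing. The 20 kb limit was set after the values were seen. Of all protein-coding genes of at least 20 kb, 8.70% were higher and 3.56% lower, and of the shorter ones 2.80% were higher and 8.02% lower. The spans of the 7 ran from 22.7 kb for EIF4H to 101 kb for EIF2AK4. Spearman's correlation of span with the log2 difference was 0.497 across the 24 protein-coding members and 0.327 across 11916 protein-coding genes, which share the same 10 arrays and are not replicates. With the span trend removed from each array, 5.13% of all genes were higher and 4 members rose (EIF4B 0.81, EIF2AK4 0.63, EIF5B 1.00 and EIF2AK1 0.50) and EIF4E3, EIF4EBP1 and EIF4H did not pass (limma adjusted p from 0.064 to 0.212).

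**Figure D4:**
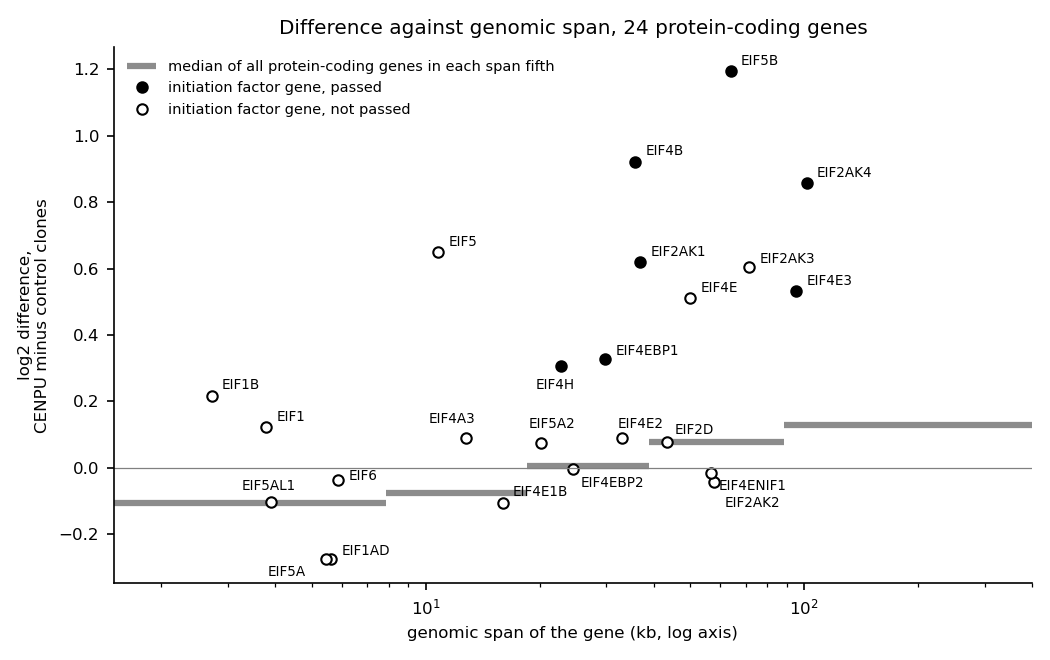
Log2 difference (vertical axis, CENPU minus control clones) against genomic span (horizontal axis, kb on a log axis) for the 24 protein-coding members, with grey bars for the median of all protein-coding genes in 5 bins of equal size by span. The 7 filled points, which passed, lie at spans of 22.7 to 101 kb, and the grey medians run from -0.11 to 0.13.

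Other genes of translation and its control were taken from 5 lists of 75 genes, 48 of them measured. Of the 48, 12 rose and 2 fell, 25.0% and 4.17%, beside 5.31% and 4.79% of all genes, and the median log2 difference was 0.28. Without control 2, CENPU 7 and CENPU 13, 3 rose (EEF1G, GSPT1 and CYFIP1) and 0 fell. Of the 14884 genes, 209 (1.40%) were higher and 261 lower in that fit. These lists describe neighbours of the initiation factors in the pathway and were not tested as sets.

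Of 11 measured genes for other initiation, cap and tail proteins, 4 rose, 0 fell and 7 did not pass, with a median of 0.60. CYFIP1, whose product represses translation by binding eIF4E, averaged 9.54 ± 0.18 in CENPU clones against 8.82 ± 0.29 in control clones (SD, n = 5 each), a rise of 0.72. GIGYF2, the partner of the repressor eIF4E2, rose by 0.68. The helicase gene DHX36 rose by 1.15, and DENR, a recycling and re-initiation factor, by 0.60, both with overlapping groups. Of 13 measured genes of mTOR and MNK signalling, MTOR itself rose by 0.78, RRAGA, a GTPase that recruits it to lysosomes, by 0.74 and RPS6 by 0.46, 0 fell and 10 did not pass, with a median of 0.19. MTOR averaged 8.72 ± 0.25 in CENPU clones against 7.94 ± 0.32 in control clones (SD, n = 5 each), without overlap. The limma adjusted p of these 7 genes were 0.0141 to 0.0489. Without control 2, CENPU 7 and CENPU 13 the difference was 0.49 for DHX36, 0.28 for DENR and 0.24 for RPS6, and 0.47 for CYFIP1, which alone of the 7 passed. In the 10 fits without 1 clone, DHX36 and DENR each passed in 2, RPS6 in 3, RRAGA in 9 and CYFIP1, GIGYF2 and MTOR in 10.

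In the list of eIF2 alpha phosphatase and integrated stress response genes, 13 were measured, none of them a phosphatase subunit. Of these 13, 3 rose, 1 fell and 9 did not pass, with a median of 0.29. The asparagine synthetase gene ASNS and the serine synthesis gene PHGDH rose by 0.95 and 0.53, and the adaptor NCK1 by 0.70. The transcription factor gene ATF5 fell by 0.70, averaging 8.83 ± 0.35 in CENPU clones against 9.54 ± 0.09 in control clones (SD, n = 5 each), without overlap. ATF4, the transcription factor translated when eIF2 alpha is phosphorylated, differed by 0.14, DDIT3 by 0.23, TRIB3 by 0.23 and SESN2 by -0.17, and these 4 did not pass. The limma adjusted p of the 4 that passed were 0.0107 to 0.0441. None of these 4 passed without control 2, CENPU 7 and CENPU 13, and NCK1 differed by 0.31. In the 10 fits without 1 clone NCK1 passed in 3 and PHGDH in 4, and ASNS and ATF5 in 10. GCN1, the activator of GCN2, differed by 0.36 and did not pass. IMPACT had the largest difference of the list, 1.02, with overlapping groups, and VLDLR differed by 0.58. Neither passed (limma adjusted p = 0.133 and 0.144). PSAT1, another serine synthesis gene, differed by 0.29 and ATF3 by -0.16, and these did not pass either (limma adjusted p = 0.707 and 0.649).

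In elongation, 1 of 7 measured genes rose, 1 fell and 5 did not pass, with a median of 0.17. EEF1G, a subunit of the exchange factor of eEF1A, rose by 0.57, with 12.02 to 12.22 in CENPU clones against 11.49 to 11.65 in control clones (limma adjusted p = 0.00371). The other EEF1G row, with 9.43 to 9.57 in CENPU clones against 9.28 to 9.44 in control clones, differed by 0.13 and did not pass, and the mean of both rows rose by 0.35 (limma adjusted p = 0.019). EEF1D, another subunit of the same exchange factor, fell by 0.57, with 7.12 to 7.66 in CENPU clones against 7.85 to 8.24 in control clones (limma adjusted p = 0.016). In EEF1D and the brighter EEF1G row the groups did not overlap. Without control 2, CENPU 7 and CENPU 13 EEF1D was -0.53 and did not pass (limma adjusted p = 0.0807). In termination and recycling, GSPT1, which encodes the release factor eRF3a, rose by 1.00 and the other 3 of 4 measured genes did not pass. GSPT1 had 9.09, 9.35, 9.75, 9.74 and 9.82 in CENPU clones 1, 4, 5, 7 and 13, against 8.59, 8.36, 8.86, 8.47 and 8.47 in control clones 1 to 5 (limma adjusted p = 0.00422).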

How the data were processed

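The authors deposited log2 expression values, 1 column for each of the 10 clones and 53617 probe-set rows. Per the submitters' processing notes the tools were Partek and RMA, with no version. RMA comprises background correction, quantile normalization and probe summary, which is meant to remove a shift common to most genes. Array medians of the deposited values still ran from 4.62 to 4.76, and background left in dim rows shrinks their differences. That the scale is log2 was read from the values, which run from 1.65 to 15.0. The platform table named 16098 rows for 14884 genes, and symbols, types and spans came from RefSeq (GRCh38.p14) by gene ID. The sources used here name no genome build for the array.

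All 16098 named rows were fitted with limma 3.58.1 in R 4.3.3 (lmFit and eBayes, 5 CENPU against 5 control clones, no covariate) with Benjamini-Hochberg adjustment over them. Each gene was represented by its row of highest mean and passed where the adjusted p was below 0.05. The fit was tested on simulated data with independent noise in each row. These held no span trend or other variation shared across the rows of a clone, so the test does not cover it. Replicates are separate clonal isolates per the labels, and p-values rest on how these isolates vary. The members and lists were chosen with earlier results of these data known. Values by clone were given for members that passed and, in each symbol group, for those of smallest p and of highest mean. In the lists, up to 4 genes that passed were named by smallest p. EIF5, EIF4E, EIF2AK3 and EIF2AK2, and list genes that did not pass, were added after their values were seen. Alternatives were other scalings, a filter on dim rows, all rows, mean of a gene's rows, array weights, trended and robust variances, other thresholds, a block by clone number, removal of the span trend by loess and left-out clones. Clones numbered 1, 4 and 5 in both groups had correlations of their deviations of -0.375, 0.104 and 0.0249. Clones of unlike number were not compared in this way, so these values do not settle whether the number pairs them. The main fit used no pairing. Arrays give no read depth, so precision was set by the 5 clones in each group.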

Additional observations from a re-analysis of the deposited data

Results flagged for a closer look

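Control 2 stood apart from the other control clones in EIF5, at 6.74 against 7.32 to 7.46, a gap of 0.811 of the group's range. It was the 1 distant value among 52 groups of 5 clones examined, where chance gives about 1 in 20. Without control 2 the EIF5 difference was 0.51 and did not pass, as with all clones.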

How the results depend on the processing

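How many members passed depended on the clones, the scaling and the threshold. In place of 7 higher members there were 3 with adjustment over all rows of the table, 4 with the span trend removed, 2 without control 2, CENPU 7 and CENPU 13, 2 at an adjusted p under 0.01, and 2 to 9 in the fits without 1 clone. In the same order, 3.98%, 5.13%, 1.40%, 0.873% and 2.00% to 9.83% of all genes were higher, beside 5.31% in the main fit. In place of 0 lower members there was 1, EIF1AD, after quantile normalization, with array weights and at an adjusted p under 0.10. Of the 14884 genes, 952, 948 and 1180 were lower in those settings, beside 713 in the main fit. Genes passing in all numbered 470 without control 2, CENPU 7 and CENPU 13, 253 at the stricter and 2588 at the looser threshold, and 613 to 2471 without 1 clone. With clone number as a replicate block over the 6 clones with shared numbers, 0 members and 55 genes passed in limma, against 8 members and 2204 genes at an unadjusted p under 0.05, with fewer clones in the fit. The EIF2AK median was 0.24 without control 2, CENPU 7 and CENPU 13. EIF4B kept its call in 21 of 22 alternatives, EIF4E3 in 20, EIF2AK4 in 15 and EIF2AK1 in 11. EIF5B kept it in 10, EIF4H in 8 and EIF4EBP1 in 5, and 0 of these 7 changed sign. The 22 include the looser threshold, which keeps every call made at 0.05. They also include the mean of a gene's rows, which leaves the values of members with 1 row unchanged.

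Members that did not pass changed sign in some settings. Under the block these were EIF1 (-0.0013), EIF1B (-0.072), EIF1B-AS1 (0.074), EIF4A3 (-0.0045), EIF5A2 (-0.27), EIF5AL1 (0.030) and EIF6 (0.19). Without the 3 clones they were EIF1B (-0.049), EIF1B-AS1 (0.066), EIF4A3 (-0.012), EIF4E1B (0.031), EIF5A2 (-0.25), EIF5AL1 (0.041) and EIF6 (0.18). With the span trend removed they were EIF2D (-0.064), EIF4E2 (-0.013), EIF5AL1 (0.019) and EIF6 (0.066). EIF2D was -0.0030 after quantile normalization and EIF5A2 was -0.0010 with array weights. In the fits without 1 clone, differences ran from -0.12 to 0.0019 for EIF1B-AS1, -0.29 to 0.21 for EIF2AK2, -0.0021 to 0.13 for EIF2D, -0.17 to 0.0036 for EIF4E1B, -0.083 to 0.066 for EIF4EBP2, -0.088 to 0.024 for EIF4ENIF1, -0.067 to 0.18 for EIF5A2 and -0.14 to 0.042 for EIF6. The cause of these changes was not tested.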
